A study of Mus musculus with 6 samples.

Results

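The vascular genes of the mouse sciatic nerve were followed in 36 members: 20 genes of endothelial cells, 10 of mural cells (pericytes and smooth muscle), 5 secreted vascular ligands and the lipid exporter gene Mfsd2b. They were taken by symbol from the 54838 genes of the deposited table, and each symbol matched 1 gene. The nerves came from mice at postnatal day 3 of the strain labelled C57 Bl. One group of 3 libraries carried CnpCre and Actl6afl/fl and is called cKO here. The other group of 3 libraries was labelled WT, and whether it carried Cre or a floxed Actl6a allele is not given in the labels. Actl6a encodes a subunit of BAF chromatin remodelling complexes, and the Cnp promoter drives Cre mainly in myelinating glia, which in nerve are Schwann cells. The whole nerve was sequenced, so vascular RNA is a part of each library, and fewer cells of a type cannot be told apart from less RNA per cell.

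Blood vessels of the nerve are lined by endothelial cells, which sense VEGF through Kdr and Flt1 and angiopoietins through Tek, partnered by Tie1. Endothelial PDGF-B recruits pericytes that carry Pdgfrb, and pericytes in turn release angiopoietin 1, which activates Tek. Angiopoietin 2 comes from endothelial cells and in many settings opposes angiopoietin 1. Smooth muscle cells wrap the larger vessels and are known by their contractile proteins.

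The pair of receptor genes Tek and Tie1 lie on the same chromosome, and of the pair Tek alone was called in cKO nerves, as described with the receptors, so their promoters are shown. Each is the RefSeq sequence of GRCm38.p6 from 250 bases before to 50 bases after the transcript start, 5′ to 3′. The Tek window is chr4:94739039-94739338 on the plus strand, and its RefSeq start is that of the Ensembl gene. The Tie1 window is chr4:118489800-118490099 on the minus strand, and its RefSeq start at 118489849 lies inside the Ensembl gene, whose start is at 118490061. Capitals mark AGGAAG on either strand, a 6-base word that holds the GGAA core recognised by ETS factors such as Erg and Fli1.
Tek: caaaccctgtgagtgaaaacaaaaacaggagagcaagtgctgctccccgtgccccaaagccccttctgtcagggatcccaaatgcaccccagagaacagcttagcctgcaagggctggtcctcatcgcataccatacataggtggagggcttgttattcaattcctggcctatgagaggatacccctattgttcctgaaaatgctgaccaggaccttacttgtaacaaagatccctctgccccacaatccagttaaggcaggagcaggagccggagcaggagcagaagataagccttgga
Tie1: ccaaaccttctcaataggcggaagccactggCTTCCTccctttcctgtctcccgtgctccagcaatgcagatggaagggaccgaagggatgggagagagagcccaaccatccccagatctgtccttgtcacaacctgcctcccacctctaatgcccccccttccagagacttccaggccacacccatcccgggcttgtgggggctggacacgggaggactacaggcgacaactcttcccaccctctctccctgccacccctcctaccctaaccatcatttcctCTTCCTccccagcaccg
The word occurred at 2 places in the Tie1 window, on the minus strand of the sequence as printed, starting at bases 32 and 284 from its 5′ end. It occurred at 0 places in the Tek window, which does hold the shorter GGAA core on the minus strand, printed as ttcc. Among all 32851 RefSeq promoter windows of this length, 35.4% held it on either strand, and 38.4% of the 27025 genes had at least 1 window with it. Of the 36 members, 22 had at least 1 promoter entry, and 8 of these (36.4%) held the word, a share near that of all genes. All 8 were among the 12 endothelial members with an entry, and it was found in 0 of the 7 mural members with an entry. A match describes the letters of the window and not a bound site.

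Total counts per library were 31404107 to 32674317 in cKO nerves and 33084003 to 36760296 in WT nerves, and levels are given as CPM, a count relative to library size with TMM factors applied. All 36 members passed the low-count filter, and the smallest member count in any library was 45. The library cKO 2 stood apart on the first principal component, at -79.0 against -11.4 and -16.8 for the other cKO libraries and 32.8 to 38.1 for WT libraries. Its summed level of 15 skeletal muscle markers was 78756 CPM, against 5320 and 6053 CPM in the other cKO libraries and 4229 to 5954 CPM in WT libraries. Results were also computed without cKO 2. In the check of the genotype, Actl6a averaged 43.8 ± 3.29 CPM in cKO and 49.4 ± 3.61 CPM in WT nerves (SD, n = 3 each), with an adjusted p of 0.243; without cKO 2 it was called lower (log2 fold change -0.24, adjusted p = 0.0487). Cnp averaged 268 ± 78.7 CPM in cKO and 1414 ± 39.1 CPM in WT nerves (SD, n = 3 each), with an adjusted p of 0.00146. The 10 Schwann cell markers summed to 6303 to 12455 CPM in cKO and 55106 to 59341 CPM in WT nerves, and 7 of them fell. Of the 10 macrophage markers 8 rose, with sums of 1093 to 1570 CPM in cKO and 664 to 769.9 CPM in WT nerves.

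Of the 36 members, 3 rose in cKO nerves (Tek, Angpt1 and Anpep) and 2 fell (Plvap and Pdgfrb), at an adjusted p below 0.05 by edgeR's quasi-likelihood test over 18775 genes. The members called made 13.9% of the list, beside 18.8% of all genes tested (8.55% higher and 10.3% lower). The cKO and WT libraries did not overlap for 16 members, 9 with all cKO libraries above and 7 with all below. These were 44.4% of the members, beside 42.7% of all genes (21.0% above and 21.7% below). Without cKO 2, 7 members rose (these 3 with Fli1, Sox17, Pdgfb and Mcam) and 5 fell (these 2 with Prox1, Vwf and Angpt2), which is 33.3% of the members beside 35.4% of all genes (17.8% higher and 17.6% lower). By DESeq2, Vegfa and Pdgfb were called higher and Angpt2 lower in addition, giving 5 higher and 3 lower, beside 10.4% of all genes higher and 11.3% lower (21.7% in either direction). All of these shares lie near those of all genes. The median log2 fold change was 0.09 over endothelial members and -0.01 over mural members, beside 0.045 over all genes.

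**Figure D1:**
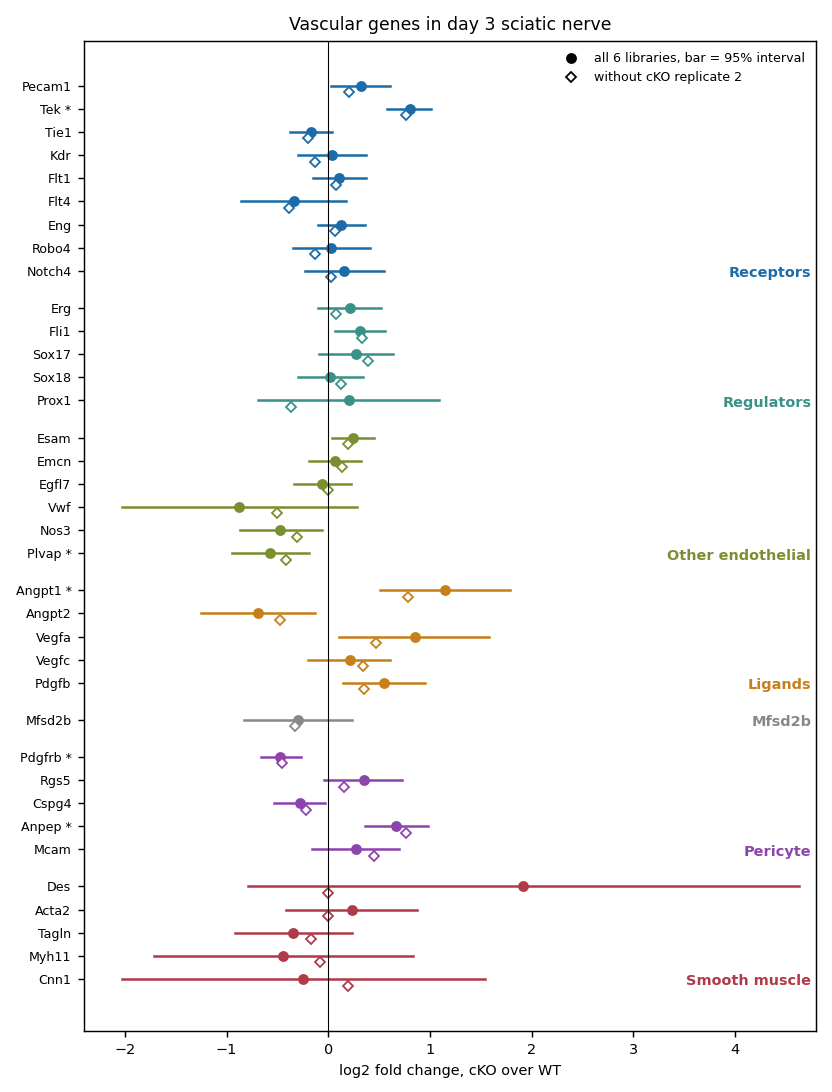
Log2 fold change (cKO over WT) of each of the 36 members, grouped by role, with bars for the 95% interval, and open diamonds for the fit without cKO 2. A star marks an adjusted p below 0.05 with all libraries. Tek lies at 0.80 with a narrow interval, Pdgfrb at -0.47, and Des at 1.92 with an interval that runs from -0.79 to 4.63.

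Per kilobase of exon, Mcam, Acta2, Des and Rgs5, all listed as mural, had the highest mean levels of the 36 in WT nerves. Flt4 and Mfsd2b had the lowest. Mcam is also a molecule of endothelial cells and Des one of all muscle types, so these levels need not come from mural cells alone. In CPM per kilobase, Mcam stood at 169.4 in cKO and 140.5 in WT nerves, and Acta2 at 136.2 in cKO and 116.5 in WT nerves. The WT libraries of Mcam and Acta2 spanned 132.3 to 145.7 and 105.4 to 134.0, so these neighbours overlapped. The highest endothelial genes in WT nerves were Pecam1, at 29.4 in cKO and 23.5 in WT nerves, and Egfl7, at 21.0 in cKO and 21.8 in WT nerves, and their WT libraries also overlapped. Tek ranked 8th of the 36 in WT nerves, at 24.4 CPM per kilobase in cKO and 14.1 in WT nerves, beside Anpep at 22.2 in cKO and 13.9 in WT nerves. The order among the low genes was not separated by the libraries either: in WT nerves Flt4 spanned 0.917 to 1.26 and Mfsd2b 0.841 to 0.985 CPM per kilobase. Defining markers of endothelium, lymphatic endothelium, pericytes and smooth muscle had counts in every library.

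**Figure D2:**
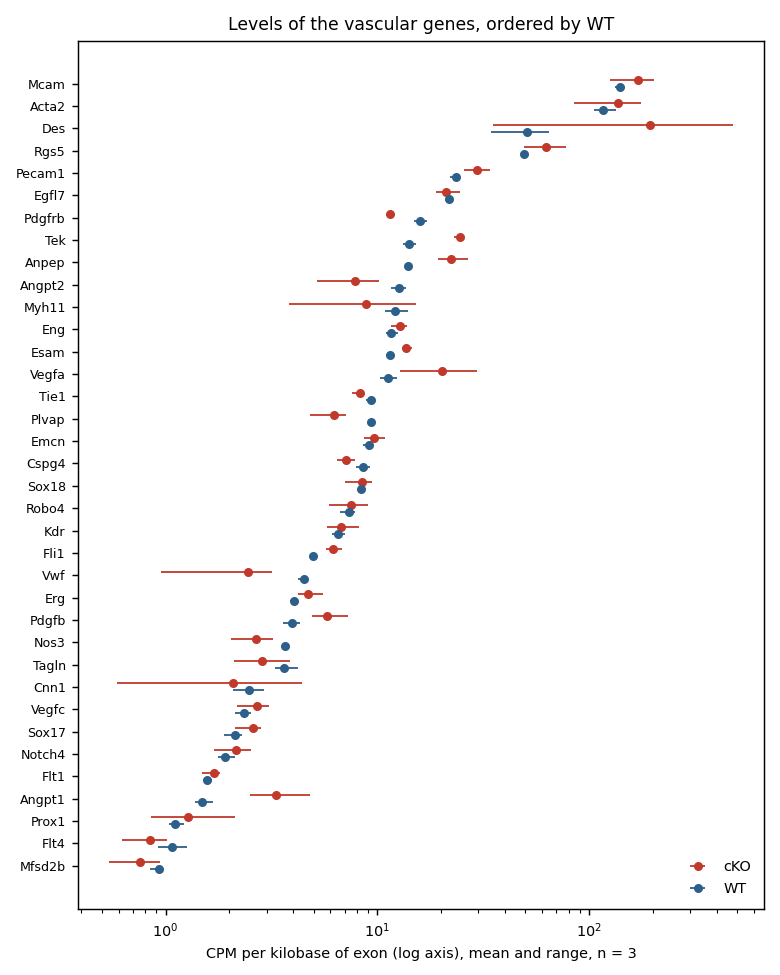
Mean level of the 36 members in CPM per kilobase of exon on a log axis, ordered by the WT mean, with cKO beside WT and bars from the lowest to the highest library of each group. Mcam, Acta2, Des and Rgs5 lead the WT order, and the bar of Des in cKO nerves spans 35.1 to 478 CPM per kilobase.

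Among the 9 endothelial receptors, Tek was the only one called (11.1%, beside 18.8% of all genes). Tek, the angiopoietin receptor Tie2, had 109, 121 and 116 CPM in cKO libraries, against 62.0, 71.7 and 65.2 CPM in WT libraries. The groups did not overlap. The log2 fold change was 0.80 (95% interval 0.58 to 1.01), a 1.74-fold higher level, with an adjusted p of 0.00231 by edgeR's quasi-likelihood test. Tek was called under all 12 alternative settings, with an adjusted p of 1.17e-05 to 0.0236 when 1 library was left out. Tie1, the orphan partner of Tek, had 42.5, 42.4 and 37.4 CPM in cKO libraries, against 47.9, 43.5 and 46.3 CPM in WT libraries. Its cKO libraries were all below its WT libraries, but the difference did not pass the test (log2 fold change -0.17, adjusted p = 0.222). The ratio of Tek to Tie1 was 2.56, 2.84 and 3.11 in cKO libraries and 1.3, 1.65 and 1.41 in WT libraries. With all cKO libraries above WT for Tek and below for Tie1, the groups had to be apart in this ratio. Against Cdh5, the cadherin of endothelial junctions, the ratio of Tek was 0.736, 0.718 and 0.770 in cKO libraries and 0.432, 0.539 and 0.510 in WT libraries. Against Pecam1 the groups lay closer, at 0.612, 0.568 and 0.725 in cKO libraries and 0.408, 0.526 and 0.432 in WT libraries. Tek is also expressed by a subset of macrophages, and 8 of 10 macrophage markers rose in the same libraries; their part in the rise of Tek was not tested.

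Pecam1, the adhesion receptor CD31, had 177, 212 and 161 CPM in cKO libraries, against 152, 136 and 151 CPM in WT libraries. The cKO libraries lay above the WT libraries, but the log2 fold change of 0.32 did not pass the test (adjusted p = 0.112). The VEGF receptors gave overlapping groups. Kdr, the main signalling receptor for VEGF-A, had 52.3, 73.8 and 56.0 CPM in cKO libraries, against 63.4, 55.4 and 58.5 CPM in WT libraries. Its log2 fold change was 0.04 (95% interval -0.30 to 0.37), and it was -0.13 without cKO 2. Flt1, which also acts as a soluble decoy, had a log2 fold change of 0.11 (-0.15 to 0.37), and Flt4, the receptor of VEGF-C on lymphatic vessels, one of -0.34 (-0.86 to 0.17). Eng, a co-receptor for TGF-beta family ligands, stood at 0.13, Robo4, a roundabout receptor of vessels, at 0.03, and Notch4, the endothelial Notch receptor, at 0.16. The sign of Robo4 turned to -0.13 without cKO 2. None of these 6 was called by edgeR with all libraries, at an unadjusted p below 0.05, or by DESeq2.

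Of the 5 regulators of endothelial identity, 0 passed the adjusted threshold with edgeR or DESeq2, beside 18.8% and 21.7% of all genes. With edgeR, 1 (Fli1) had an unadjusted p below 0.05. Without cKO 2, 2 rose and 1 fell (60% called, beside 35.4% of all genes). Fli1, an ETS factor, had 23.8, 21.1 and 19.97 CPM in cKO libraries, against 17.0, 18.2 and 17.0 CPM in WT libraries. Every cKO library was above every WT library, and the log2 fold change was 0.31 (adjusted p = 0.0785), or 0.33 (adjusted p = 0.0273) without cKO 2. Erg, the related ETS factor, also had all cKO libraries above, with 14.6, 19.1 and 15.2 CPM, against 14.2, 14.6 and 13.5 CPM in WT libraries (log2 fold change 0.21, adjusted p = 0.289). Sox17, a factor of arterial endothelium, had a log2 fold change of 0.27 (adjusted p = 0.245) with all libraries and 0.39 (adjusted p = 0.0231) without cKO 2. A non-coding gene, Gm37587, shares 16.8% of the exonic bases of Sox17, and strand was not used in counting. Sox18, which acts in vascular and lymphatic development, had a log2 fold change of 0.02 (adjusted p = 0.927).

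Prox1, the factor that sets lymphatic identity, changed direction with 1 library. It had 7.17, 17.8 and 7.31 CPM in cKO libraries, against 10.3, 8.99 and 8.76 CPM in WT libraries. The library cKO 2, with its high skeletal muscle markers, was the highest of the 6, and the other cKO libraries were the lowest. Prox1 had a log2 fold change of 0.20 (adjusted p = 0.727) with all libraries and -0.37 (adjusted p = 0.0455) without cKO 2.

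The 6 other endothelial members split into 3 with all cKO libraries below WT, 1 with all above and 2 that overlapped. Those without overlap were 66.7% of the 6, beside 42.7% of all genes. Plvap, which builds the diaphragms of fenestrae and caveolae, had 13.7, 9.55 and 14.1 CPM in cKO libraries, against 17.9, 18.6 and 19.0 CPM in WT libraries. Its groups did not overlap, and it fell with a log2 fold change of -0.57 (95% interval -0.95 to -0.19) and an adjusted p of 0.0495, close to the threshold. Of the 6 fits that left out 1 library, the one without cKO 2 kept the call (log2 fold change -0.42, adjusted p = 0.00599); in the others the adjusted p was 0.0616 without cKO 1, 0.0691 without cKO 3, and 0.134, 0.148 and 0.157 without WT 1, 2 and 3.

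Vwf, the clotting glycoprotein stored in endothelial granules, had 51.0, 15.3 and 51.2 CPM in cKO libraries, against 74.7, 73.4 and 68.1 CPM in WT libraries. Each cKO library was below WT, and cKO 2 was far below the other cKO libraries. For Vwf the log2 fold change was -0.88 (95% interval -2.03 to 0.28, adjusted p = 0.237) with all libraries and -0.50 (adjusted p = 0.000356) without cKO 2, where the spread was smaller. Relative to Pecam1, Vwf was at 0.288, 0.0722 and 0.319 in cKO libraries and at 0.491, 0.538 and 0.451 in WT libraries. The groups had to be apart in this ratio, as all cKO libraries were below WT for Vwf and above for Pecam1.

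Nos3, the endothelial nitric oxide synthase, had 13.3, 8.3985 and 11.3 CPM in cKO libraries, against 15.0, 15.2 and 15.4 CPM in WT libraries. The cKO values were all below WT, with a log2 fold change of -0.47 (adjusted p = 0.105). Nos3 was called in 1 of the 6 fits that left out 1 library, without cKO 1 (log2 fold change -0.62, adjusted p = 0.0481 by edgeR). Without cKO 2 its log2 fold change was -0.31 (adjusted p = 0.0503). Atg9b and Gm15587 share 32.3% of the exonic bases of Nos3, so its level is uncertain. Esam, an adhesion molecule of endothelial junctions, ran the other way, with 37.3, 41.9 and 38.1 CPM in cKO libraries, against 34.1, 31.5 and 33.4 CPM in WT libraries (log2 fold change 0.24, adjusted p = 0.0965). Emcn, a sialomucin of capillaries and veins, and Egfl7, a secreted matrix protein whose gene hosts miR-126, had overlapping groups. Their log2 fold changes were 0.07 (95% interval -0.19 to 0.32) for Emcn and -0.06 (-0.34 to 0.22) for Egfl7, of which 11.2% of exonic bases are shared with other genes.

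Of the 5 ligands, 4 had groups that did not overlap (80%, beside 42.7% of all genes). These were Angpt1, Vegfa and Pdgfb with all cKO libraries above WT, and Angpt2 with all below. Angpt1 alone passed the test with edgeR and all libraries (20% of the 5, beside 18.8% of all genes). Without cKO 2, 2 ligands rose and 1 fell (60%, beside 35.4% of all genes). Angpt1, the agonist of Tek, had 13.8, 25.0 and 12.97 CPM in cKO libraries, against 8.69, 7.41 and 7.20 CPM in WT libraries. The highest value was in cKO 2, and the lowest cKO library was still above the highest WT library. Its level was 2.22-fold higher, with a log2 fold change of 1.15 (95% interval 0.51 to 1.79) and an adjusted p of 0.029. Without cKO 2 the log2 fold change was 0.78 (adjusted p = 0.000339). Without WT 1, 2 or 3 the call was lost, at an adjusted p of 0.0919, 0.110 and 0.118. Gm17473 shares 14.2% of the exonic bases of Angpt1.

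Angpt2, the second angiopoietin, had 30.3, 19.2 and 37.6 CPM in cKO libraries, against 42.9, 50.5 and 47.1 CPM in WT libraries. All cKO libraries were below WT, and cKO 2 was the lowest. For Angpt2 the log2 fold change was -0.69 (95% interval -1.25 to -0.13, adjusted p = 0.0893) with edgeR and -0.70 (adjusted p = 0.0222) with DESeq2, and without cKO 2 it was -0.47 (adjusted p = 0.00416). The ratio of Angpt1 to Angpt2 was 0.456, 1.31 and 0.345 in cKO libraries and 0.203, 0.147 and 0.153 in WT libraries. This ratio of CPM values is not scaled by gene length, and cKO 2 was the highest. With all cKO libraries above WT for Angpt1 and below for Angpt2, the groups had to be apart in it.

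Vegfa, the main growth factor of endothelial cells, had 54.8, 127 and 78.6 CPM in cKO libraries, against 53.3, 44.0 and 47.4 CPM in WT libraries. The cKO libraries were all above WT, cKO 1 by a small margin and cKO 2 by the most. The log2 fold change was 0.85 (95% interval 0.11 to 1.58, adjusted p = 0.104) with edgeR, 0.83 (adjusted p = 0.0183) with DESeq2 and 0.47 (adjusted p = 0.0514) without cKO 2. With the level of the skeletal muscle markers, high in cKO 2, as a covariate, it was 0.42 (adjusted p = 0.0842). Vegfa was called higher in 1 of the 6 fits that left out 1 library, without cKO 1 (log2 fold change 1.09, adjusted p = 0.0258 by edgeR). Vegfc, the lymphatic growth factor, had overlapping groups and a log2 fold change of 0.21 (adjusted p = 0.423). Pdgfb, the signal that recruits pericytes, had 21.5, 30.2 and 20.5 CPM in cKO libraries, against 18.0, 15.0 and 16.4 CPM in WT libraries. All cKO libraries were above WT, with a log2 fold change of 0.55 (adjusted p = 0.066) with edgeR, 0.53 (adjusted p = 0.0344) with DESeq2 and 0.35 (adjusted p = 0.0208) without cKO 2.

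**Figure D3:**
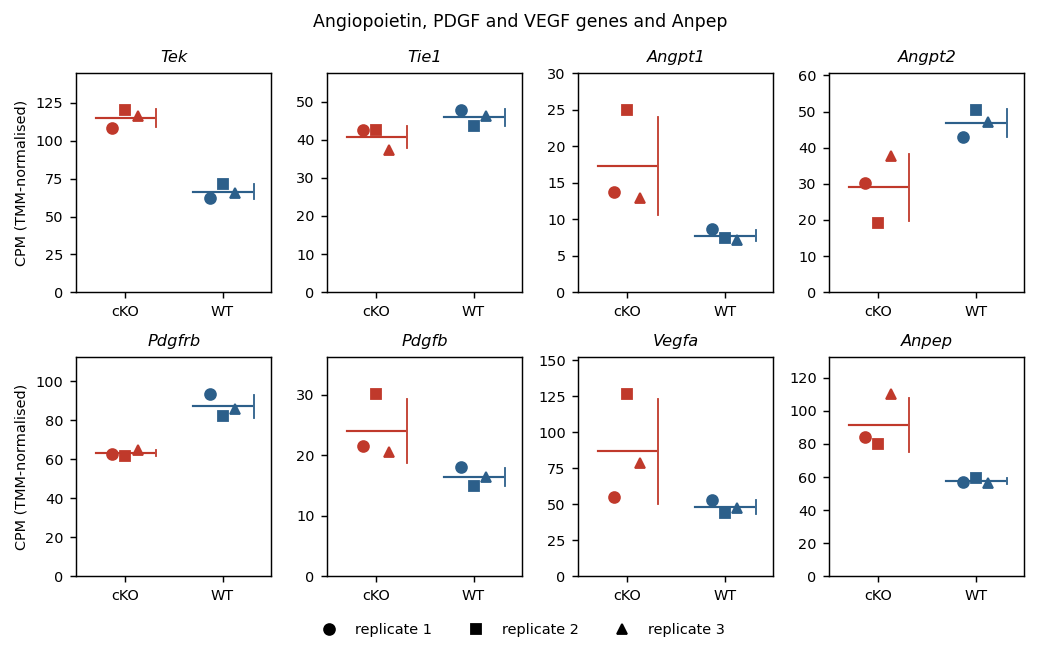
CPM of Tek, Tie1, 4 ligands, Pdgfrb and Anpep in each library, cKO left of WT, with points for libraries, a line for the group mean and a bar for its SD (n = 3). The cKO points of Tek, Angpt1, Vegfa, Pdgfb and Anpep lie above the WT points, those of Tie1, Angpt2 and Pdgfrb lie below, and cKO 2 is the highest point of Angpt1 and Vegfa.

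Mfsd2b, the exporter of sphingosine-1-phosphate in red cells and platelets, had 4.83, 4.06 and 2.80 CPM in cKO libraries, against 4.33, 5.07 and 4.95 CPM in WT libraries. The groups overlapped, and the log2 fold change was -0.30 (95% interval -0.83 to 0.23, adjusted p = 0.374). In the same libraries 8 erythroid markers summed to 21874, 8785 and 6749 CPM in cKO nerves and 2726 to 3942 CPM in WT nerves, and 5 of them rose, or 1 without cKO 2. The 9 platelet markers summed to 116 to 179 CPM in cKO and 82.0 to 96.3 CPM in WT nerves, and 1 of the 8 tested (Pf4) rose, or 2 without cKO 2. Most of that sum was Pf4, at 130, 105 and 121 CPM in cKO libraries and 67.2, 78.2 and 78.8 CPM in WT libraries. Itga2b, another platelet marker, had overlapping groups (log2 fold change 0.25, adjusted p = 0.73 by edgeR). The part of blood cells held in the nerve in the levels of vascular genes was not tested.

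Among the 5 pericyte genes, Pdgfrb fell and Anpep rose (40% called, beside 18.8% of all genes). Pdgfrb, the receptor for PDGF-B, had 62.9, 61.6 and 64.9 CPM in cKO libraries, against 93.6, 82.0 and 86.0 CPM in WT libraries. The cKO libraries were close to each other and all below WT. The log2 fold change was -0.47 (95% interval -0.66 to -0.27) with an adjusted p of 0.0106, and -0.45 (adjusted p = 0.000874) without cKO 2. The call was lost without WT 1 (adjusted p = 0.0527) and without WT 3 (adjusted p = 0.0567). Together with its ligand, the ratio of Pdgfb to Pdgfrb was 0.343, 0.490 and 0.316 in cKO libraries and 0.192, 0.183 and 0.191 in WT libraries. The groups had to be apart in this ratio, as all cKO libraries were above WT for Pdgfb and below for Pdgfrb. Pdgfrb is also expressed by fibroblasts, whose 10 markers summed to 18155 to 22345 CPM in cKO and 19156 to 19915 CPM in WT nerves, with 4 higher and 1 lower; their part in the fall of Pdgfrb was not tested.

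Anpep, the aminopeptidase CD13, had 84.4, 80.2 and 110.35 CPM in cKO libraries, against 56.9, 59.4 and 56.4 CPM in WT libraries. The 3 cKO libraries were all above WT. For Anpep the log2 fold change was 0.67 (95% interval 0.36 to 0.98) with an adjusted p of 0.0152, and 0.76 (adjusted p = 0.000107) without cKO 2. The call was lost without WT 1, 2 or 3 (adjusted p = 0.0778, 0.0720 and 0.0777). Anpep is also made by fibroblasts and myeloid cells, and the part of the macrophage markers that rose beside it was not tested. The ratio of Anpep to Pdgfrb was 1.34, 1.3 and 1.70 in cKO libraries and 0.608, 0.725 and 0.656 in WT libraries. Here too the groups had to be apart, as all cKO libraries were above WT for Anpep and below for Pdgfrb.

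The other pericyte genes were not called with all libraries. Cspg4, the proteoglycan NG2, had 82.7, 76.95 and 93.8 CPM in cKO libraries, against 111, 102 and 95.04 CPM in WT libraries. All cKO libraries were below WT, the nearest pair by a small margin, and the log2 fold change was -0.28 (adjusted p = 0.111). Rgs5, a regulator of G-protein signalling abundant in pericytes, had 279, 353 and 225 CPM in cKO libraries, against 223, 220.5 and 231 CPM in WT libraries (log2 fold change 0.35, adjusted p = 0.183). Mcam, the adhesion molecule CD146 of endothelial and mural cells, had 679, 419 and 604 CPM in cKO libraries, against 481, 488 and 443 CPM in WT libraries. Here cKO 2 was the lowest of the 6 libraries and the other cKO libraries the highest. The log2 fold change of Mcam was 0.27 (adjusted p = 0.322) with all libraries and 0.45 (adjusted p = 0.00141) without cKO 2.

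Of the 5 smooth muscle genes, 0 were called by edgeR or by DESeq2, beside 18.8% and 21.7% of all genes. In either direction 0 had an unadjusted p below 0.05 by edgeR. Without cKO 2, 0 were called, beside 35.4% of all genes. All 5 had overlapping groups, where 42.7% of all genes did not overlap, and the spread between cKO libraries was wide. Des, the intermediate filament protein of all muscle types, had 132, 1795 and 250.4 CPM in cKO libraries, against 242, 129 and 203 CPM in WT libraries. The value of cKO 2 stood far above the others. Its log2 fold change was 1.92 (95% interval -0.79 to 4.63, adjusted p = 0.262) with all libraries and -0.003 (adjusted p = 0.997) without cKO 2. The skeletal muscle marker sum in the same 3 cKO libraries was 5320, 78756 and 6053 CPM, so both were highest in cKO 2. In WT libraries the sum was 5940, 4229 and 5954 CPM, and within that group both were lowest in WT 2. The part of skeletal muscle in the level of Des was not tested.

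Of the contractile genes of smooth muscle, Acta2 was also highest in cKO 2 and the other 3 were lowest there. Acta2, smooth muscle actin, had 150.2, 312 and 266 CPM in cKO libraries, against 196, 188 and 239 CPM in WT libraries (log2 fold change 0.23, 95% interval -0.42 to 0.87). Myh11, smooth muscle myosin heavy chain, had 57.2, 29.2 and 116 CPM in cKO libraries, against 82.6, 86.4 and 106 CPM in WT libraries (-0.44, -1.71 to 0.83). For Myh11 the lowest and the highest of the 6 libraries were both cKO. Cnn1, calponin, had 3.46, 1.62 and 12 CPM in cKO libraries, against 5.69, 6.69 and 7.96 CPM in WT libraries (-0.25, -2.03 to 1.54). Tagln, transgelin, had 5.17, 4.16 and 7.66 CPM in cKO libraries, against 6.53, 6.71 and 8.37 CPM in WT libraries (-0.35, -0.92 to 0.23). Within the cKO group, Myh11, Cnn1 and Tagln were all lowest in cKO 2 and highest in cKO 3. Pcsk7 and Gm48529 share 67.9% of the exonic bases of Tagln, so its level is uncertain. The intervals of these 4 genes run beyond a 1.5-fold change in at least 1 direction.

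**Figure D4:**
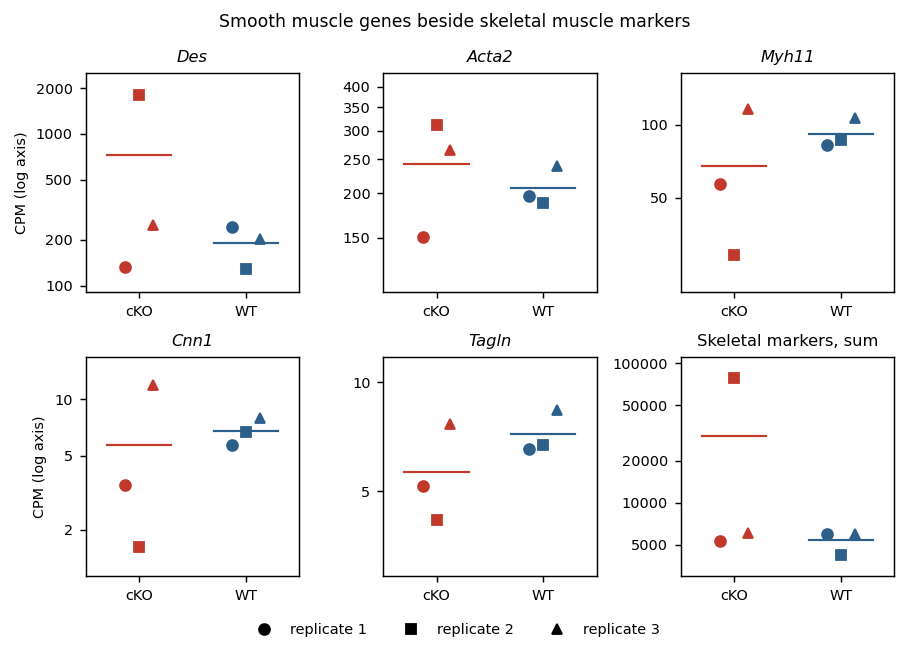
CPM of the 5 smooth muscle genes in each library on a log axis, cKO left of WT with a line for the group mean, beside the summed CPM of 15 skeletal muscle markers. The library cKO 2 is the highest for Des (1795 CPM) and for the skeletal muscle sum (78756 CPM) and the lowest for Myh11 (29.2 CPM), Cnn1 and Tagln.

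The other genes of the same signalling pathways were counted from lists that leave out the members. Among 8 further VEGF pathway genes, 2 rose: Vegfd, a ligand of Flt4, at 9.29 ± 0.839 CPM in cKO and 5.84 ± 0.243 CPM in WT nerves (adjusted p = 0.0141), and Shb, an adaptor of Kdr, at 12.7 ± 3.05 CPM in cKO and 7.86 ± 0.616 CPM in WT nerves (adjusted p = 0.0469; SD, n = 3 each). The call of Vegfd held in 3 and that of Shb in 2 of the 6 fits that left out 1 library. Pgf, placental growth factor and a ligand of Flt1, had a log2 fold change of 0.52 that did not pass (adjusted p = 0.0646). The 2 calls are 25.0% of the 8 genes, beside 18.8% of all genes, and without cKO 2, 5 rose and 1 fell (75.0%, beside 35.4% of all genes). The median log2 fold change of the 8 was 0.46, beside 0.045 over all genes.

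Among 7 further genes of angiopoietin and Tie signalling, 1 rose. This was Dok2, an adaptor of Tek, with 11.2, 11.7 and 12.1 CPM in cKO libraries, against 6.38, 6.66 and 6.13 CPM in WT libraries. All cKO libraries were above WT, the adjusted p was 0.00358, and the call held in all 6 fits that left out 1 library. Dok2 is also expressed in blood cells. In the same libraries 8 of 10 macrophage, 5 of 8 erythroid and 1 of 8 tested platelet markers rose. Without cKO 2 these were 9, 1 and 2, and the part of macrophages and blood cells in the rise of Dok2 was not tested. Klf2 and Klf4, flow-responsive factors of endothelium, each had a log2 fold change of 0.50 (adjusted p = 0.122 and 0.0861). Without cKO 2 both were called, at 0.71 and 0.68, and 4 of the 7 genes rose. That is 57.1% called, beside 35.4% of all genes. With all libraries 14.3% of the 7 were called, beside 18.8% of all genes.

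Among 4 further PDGF genes, 1 rose and 1 fell. Pdgfd, another ligand of Pdgfrb, rose with 26.0, 27.3 and 28.1 CPM in cKO libraries, against 13.1, 16.1 and 15.7 CPM in WT libraries (log2 fold change 0.86, adjusted p = 0.00364). Pdgfc, a ligand of the alpha receptor, fell with 15.3, 16.01 and 18.9 CPM in cKO libraries, against 30.9, 33.7 and 35.8 CPM in WT libraries (log2 fold change -1.0, adjusted p = 0.00257). Both calls held in all 6 fits that left out 1 library. Pdgfa had a log2 fold change of -0.21 (adjusted p = 0.287). Without cKO 2, 2 of the 4 rose and 1 fell. The calls made 50% of the 4 with all libraries, beside 18.8% of all genes, and 75% without cKO 2, beside 35.4%. The genes of this family thus moved in both directions, with Pdgfd higher and Pdgfrb lower in cKO nerves.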

How the data were processed

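RNA of P3 sciatic nerves was sequenced in 3 cKO and 3 WT libraries. The authors deposited 1 table of counts per gene with no normalization; per the file headers, featureCounts 1.6.1 counted fragments over exons of Ensembl GRCm38 release 95, with both ends aligned, a mapping quality of at least 20 and no use of strand. The deposited table also gives each gene's other value, its exonic length. The submitters' processing notes name Subread 2.0 and DESeq2 1.3; how reads were aligned is not given there or in the labels. Symbols came from GENCODE M21 (54723 of 54838 identifiers matched), and 0 rows or per-sample columns were left out. The 37 mitochondrial genes had 0 counts.

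Testing used edgeR 4.0.16 in R 4.3.3 (filterByExpr with a minimum count of 10, TMM, robust quasi-likelihood F test, 2-sided, 4 residual degrees of freedom), with Benjamini-Hochberg adjustment over 18775 genes and calls below 0.05; the script was tested on simulated data. Standard errors and 95% intervals come from the F statistic. CPM are TMM-scaled. The alternatives were 2 other scalings, no filter, DESeq2 1.42.0, leaving out each library, a replicate block and a skeletal muscle covariate. Members and lists were chosen with earlier results of these data known. Named genes were the 36 members, up to 3 non-members of smallest p per pathway list, up to 2 of highest level per marker list, Actl6a and Cnp; Cdh5, Ets1, Icam2, Kcnj8 and Abcc9 were chosen after their values were seen. Ratios of genes are descriptions, without a test. The labels do not say whether libraries came from separate animals or from pools, so p-values measure the spread between libraries, which may be technical; within a group, no 2 libraries agreed within sampling noise (chi-square over degrees of freedom, 8.98 to 346). Promoters are from RefSeq.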

Additional observations from a re-analysis of the deposited data

How the results depend on the processing

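Over the 36 members and 12 alternative settings, 376 of 432 results kept their direction and their side of the threshold, 16 calls were lost, 20 were gained in the same direction and 20 signs turned (0 of these in a member called with all libraries, 2 with a new call, both of Prox1). With 1 library left out, the genes called were 449 to 3425 higher (1605 with all) and 790 to 3398 lower (1929 with all), the endothelial members 1 to 3 higher and 0 to 3 lower, the mural members 0 to 2 higher and 0 to 1 lower, and the ligands 0 to 2 higher and 0 to 1 lower. Upper quartile scaling left 0 endothelial members lower (Plvap lost, adjusted p = 0.091) and 2 ligands higher; 2 ligands were also higher without the low-count filter. DESeq2 called 3 ligands higher and 1 lower. With the skeletal muscle covariate, 3143 genes were higher and 3232 lower, with 3 endothelial members higher and 3 lower, 2 mural members higher, and 2 ligands higher and 1 lower. With the replicate block, 744 genes were higher and 1108 lower, with 0 endothelial members lower and 0 ligands higher; same-numbered libraries did not deviate together (r of -0.289, -0.299 and -0.0961), so the numbers were not taken as pairs. Under the muscle covariate the log2 fold change of Kdr turned to -0.16, Robo4 to -0.16, Prox1 to -0.44, Des to -0.17, Acta2 to -0.03 and Cnn1 to 0.31. With 1 library left out it ran -0.13 to 0.13 for Kdr, -0.13 to 0.17 for Robo4, -0.06 to 0.13 for Sox18, -0.37 to 0.42 for Prox1, -0.03 to 0.14 for Emcn, -0.19 to 0.01 for Egfl7, -0.00 to 2.42 for Des and -1.41 to 0.19 for Cnn1. The cause of these shifts was not tested, except that leaving out a library leaves fewer samples and skeletal muscle markers were high in cKO 2. Counts were lowest for Cnn1 (45 in cKO 2) and Mfsd2b (98 in cKO 3), where counting error adds most.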

Other observations

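Of 19 pan-endothelial genes outside the members, 6 rose and 2 fell (42.1% called, beside 18.8% of all genes; 7 and 2 without cKO 2, 47.4% beside 35.4%), with a median log2 fold change of 0.33 beside 0.045 over all genes. Cd34, a sialomucin of capillary endothelium that fibroblasts also carry, rose to 596 ± 12.3 CPM in cKO nerves, against 331 ± 14.9 CPM in WT nerves (SD, n = 3 each; adjusted p = 0.00195 by edgeR's quasi-likelihood test). Ets1, an ETS factor also made by lymphocytes, averaged 88.2 ± 9.99 CPM in cKO and 51.0 ± 1.37 CPM in WT nerves (SD, n = 3 each; adjusted p = 0.00346 by edgeR), and Icam2 averaged 21.1 ± 5.43 CPM in cKO and 12.2 ± 1.76 CPM in WT nerves (adjusted p = 0.038 by edgeR). Ecscr, a cell surface protein of endothelium, fell to 41.5 ± 5.11 CPM in cKO nerves, against 96.5 ± 5.19 CPM in WT nerves (adjusted p = 0.00111 by edgeR), and Tspan18, an endothelial tetraspanin, fell with a log2 fold change of -0.79 (adjusted p = 0.00251). The calls of Cd34, Ecscr and Tspan18 held in all 6 fits that left out 1 library.

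The lists of vessel types had 16.7% to 50% of their genes called, beside 18.8% of all genes. Of 12 genes of Notch signalling and arteries, 1 rose and 2 fell: Hey1 (log2 fold change 0.77, adjusted p = 0.0364), Notch1 (-0.72, adjusted p = 0.009) and Sema3g (-1.29, adjusted p = 0.0258). Of 10 vein and capillary genes 2 rose, Vcam1 (1.09, adjusted p = 0.00565) and Gpihbp1, which holds lipoprotein lipase on capillaries (0.87, adjusted p = 0.0111), while Aplnr had 0.27 (adjusted p = 0.059). Of 7 tip cell genes, Plaur (0.64, adjusted p = 0.0272) and Cxcr4 (0.77, adjusted p = 0.0434) rose, and Esm1 fell (-0.77, adjusted p = 0.0226). Of 6 lymphatic genes, Lyve1 and Pdpn rose (0.99 and 0.65, adjusted p = 0.0019 and 0.00211), and Mmrn1 fell to 3.87 ± 1.74 CPM in cKO nerves, against 12.3 ± 1.12 CPM in WT nerves (SD, n = 3 each; adjusted p = 0.0222). Lyve1 is also found on macrophages and Pdpn on fibroblasts and perineurial cells, and the part of those cells was not tested. Of the 12 barrier genes 2 fell. Mfsd2a, a lipid transporter of brain endothelium that other cells also make, had 1.79, 0.933 and 1.71 CPM in cKO libraries, against 24.0, 26.7 and 31.1 CPM in WT libraries (log2 fold change -4.19, adjusted p = 0.00036). The 2 groups of Mfsd2a were far apart. In the same nerves 8 of the 10 Schwann cell markers had all cKO libraries below WT, beside 21.7% of all genes. The part of Schwann cells in the fall of Mfsd2a was not tested. Slco1a4, an organic anion transporter, fell with a log2 fold change of -1.03 (adjusted p = 0.0231) at under 1.2 CPM, and Ocln, a tight junction protein, had 0.89 (adjusted p = 0.0577). Without cKO 2, 4 rose and 3 fell of the Notch and artery genes, 5 and 1 of the vein and capillary genes, 3 and 2 of the tip cell genes, 3 and 1 of the lymphatic genes, and 3 and 2 of the barrier genes. These were 41.7% to 71.4% of a list, beside 35.4% of all genes. Notch1, Vcam1, Lyve1, Pdpn and Mfsd2a were called in all 6 fits that left out 1 library, and the other calls named in these vessel lists held in 1 to 3 of them.

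Of 20 further mural genes, 1 rose and 2 fell (15.0%, beside 18.8% of all genes), and without cKO 2, 7 rose and 2 fell (45.0%, beside 35.4%). Cd248, a surface protein of pericytes and fibroblasts, rose by a log2 fold change of 0.57 (adjusted p = 0.00405). Art3 fell to 254 ± 14.2 CPM in cKO nerves, against 596 ± 48.5 CPM in WT nerves (SD, n = 3 each; adjusted p = 0.00103), and Smtn, smoothelin, fell with a log2 fold change of -1.18 (adjusted p = 0.0232), a call kept in 1 of 6 fits that left out 1 library. The part of cells other than mural cells in the falls of Art3 and Smtn was not tested. Kcnj8 and Abcc9, which form the potassium channel of pericytes, had log2 fold changes of 0.48 and 0.80 (adjusted p = 0.0518 and 0.124), and both were called without cKO 2 (adjusted p = 0.000143 and 0.00293). Of 12 targets of serum response factor and cytoskeletal genes 3 rose: Ccn1 (0.65), Zyx (0.55) and Actb (0.41; adjusted p = 0.00741, 0.00766 and 0.036). Of 13 hypoxia genes, Pdk1 rose (0.87, adjusted p = 0.0223), and Ndrg1, which Schwann cells express strongly, and Hif1a fell (-1.47 and -0.35, adjusted p = 0.00976 and 0.0241). The calls made 25% and 23.1% of these 2 lists, beside 18.8% of all genes. Without cKO 2, 7 of the 12 serum response factor and cytoskeletal genes rose, and 4 rose and 3 fell of the hypoxia genes. These were 58.3% and 53.8% of the lists, beside 35.4% of all genes. With 1 library left out, Cd248, Art3, Ccn1 and Ndrg1 were called in all 6 fits, Zyx in 4, Pdk1 in 3, Hif1a in 2 and Actb in 1. Among markers of other cells, 4 of 5 mast cell, 2 of 7 perineurial, 1 of 7 adipocyte and 2 of 6 neuronal markers rose, and 1 perineurial marker fell. Without cKO 2 the same lists had 4, 5, 0 and 4 higher, and 2 perineurial markers lower. By edgeR, 0 of the 15 skeletal muscle markers (1 at an unadjusted p below 0.05, 1 by DESeq2) and 0 of 3 cardiac markers (0 and 0) were called; without cKO 2, 2 skeletal muscle markers rose and 1 fell.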
